A study of Mus musculus with 7 samples.

Results

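Endothelial cells and stellate cells of mouse pancreatic islets were compared in 284 of the 5907 cells that the authors kept. The members were the cells of gene-count cluster 11, which the authors named endothelial, and of gene-count cluster 10, which they named quiescent stellate. The first held 139 cells (129 in replicate 1 and 10 in replicate 2) and the second held 145 (118 and 27). Both types came from the same 2 libraries, so each library gave one sum of counts per type. The islets were from female C57BL/6 mice aged 10 weeks, and the labels name no transgene and no treatment. Islets were freed with collagenase and dissociated before cells were captured in droplets, and their cDNA was sequenced as long reads on a Nanopore instrument, so that one read can cover several splice junctions. Both libraries used a modified 5′ assay with added dNTP and longer extension steps, and a Cas9-based panel had removed insulin cDNA from both. The labels do not say whether the libraries came from separate mice, so every p-value below measures only the spread between these libraries, pooled over 6 cell types.

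The islet is crossed by capillaries whose endothelial cells have pores, or fenestrae, through which hormones reach the blood. Pericytes and stellate cells lie on the outside of these vessels: pericytes contract and set vessel width, and stellate cells store retinoids and make matrix when activated. The types signal to each other, since endothelial PDGF-B recruits pericytes through PDGF receptor beta, endothelial Notch ligands act on Notch3 of mural cells, and VEGF from endocrine cells keeps the capillaries open.

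The endothelial sums held 170330 UMIs (unique molecular identifiers, which count captured molecules) in replicate 1 and 63832 in replicate 2, and the stellate sums held 130176 and 99232. The median cell had 1075 and 5406 UMIs in the endothelial type and 901 and 3319 in the stellate type. Levels are given as CPM, the UMIs of a gene scaled to the same total in every sum. In such sums, fewer cells that express a gene and less RNA per cell cannot be told apart. No cell barcode of these types was shared between libraries.

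The markers followed the names of both types. Plvap, the protein of the fenestral diaphragm, stood at 6820 and 6170 CPM in endothelial replicates 1 and 2 and at 76.8 and 10.1 CPM in the stellate replicates. Rgs5, a regulator of G protein signalling used as a pericyte marker, stood at 5920 and 4230 CPM in stellate cells and at 11.7 and 1930 CPM in endothelial cells. Kdr, the main VEGF receptor, had no UMI in either stellate sum, against 1770 and 2270 CPM in endothelial cells. All 6 endothelial and all 6 stellate markers were detected in both sums of their own type. Because the clusters were made from these gene counts, the 12 markers are described without a test. Plvap was found in 127 of 129 and 10 of 10 endothelial cells, and Rgs5 in 68 of 118 and 16 of 27 stellate cells.

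**Figure D1:**
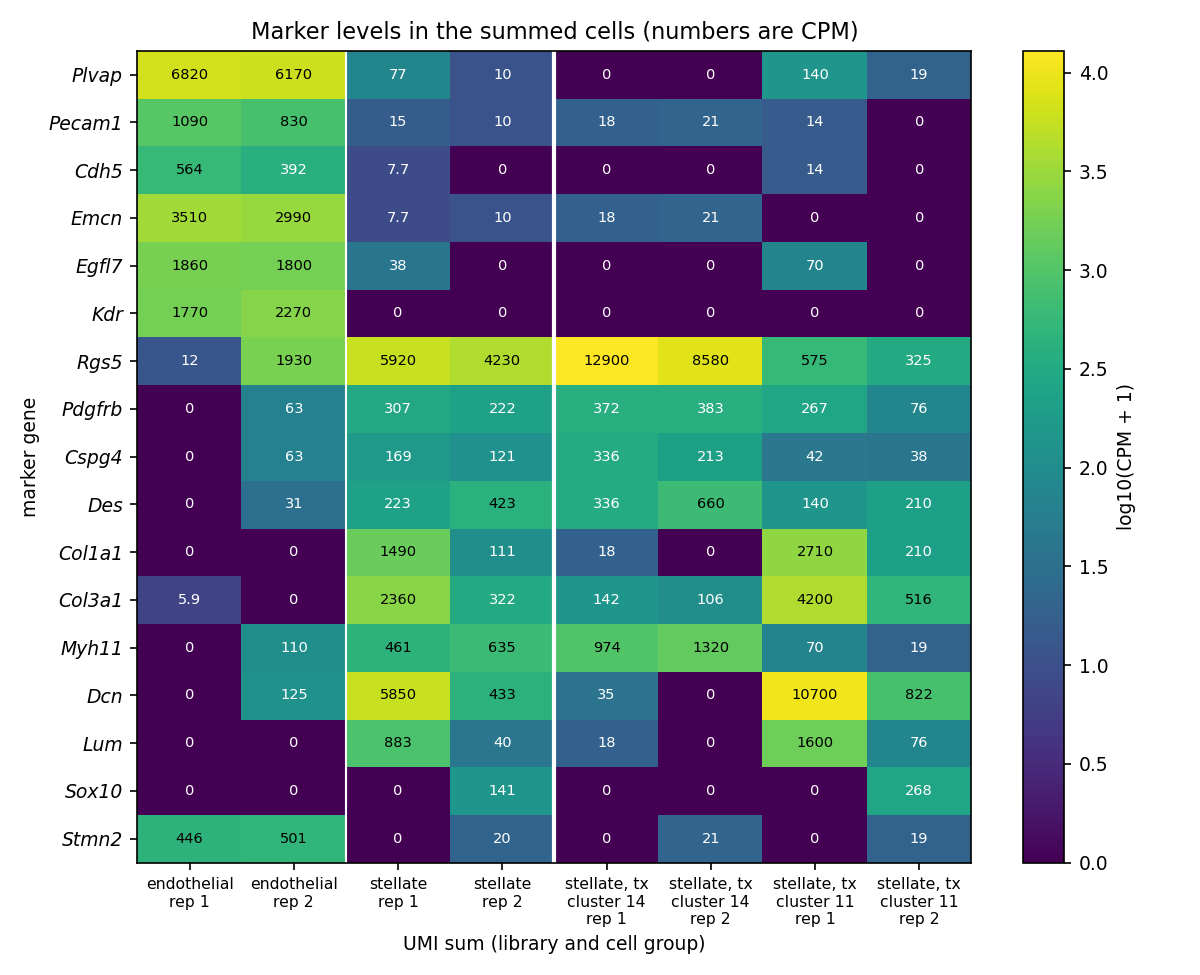
Levels of marker genes (rows) in each UMI sum (columns), as CPM in each cell and log10(CPM + 1) in colour, for the 4 sums compared and for the stellate cells split by the authors' transcript clusters 14 and 11. Endothelial markers fill the first pair of columns, Rgs5 and Myh11 peak in stellate transcript cluster 14, and Dcn (10700 CPM) and Col1a1 (2710 CPM) peak in replicate 1 of stellate transcript cluster 11.

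A few cells carried RNA of more than one type. In endothelial replicate 2, 1 cell of 18679 UMIs, 29.3% of that sum, held 116 of the 123 Rgs5 UMIs and every UMI of Myh11, Pdgfrb, Cspg4 and Des. It carried endothelial markers beside them. In endothelial replicate 1, red cell globin Hbb-bs had 1246 UMIs in 4 cells, and 1 cell held 831 of the 929 UMIs of Gcg, the glucagon gene. In stellate replicate 2, 1 cell held 1537 of 1693 Gcg UMIs. Hormone transcripts made up 0.966 and 0.24% of the UMIs in endothelial replicates 1 and 2 and 2.96 and 2.37% in stellate replicates. Leaving out cells with at least 3 UMIs of another type's markers or over 5% hormone UMIs removed 5 and 2 endothelial cells and 11 and 7 stellate cells, and values without these cells are given where they change a result. Macrophage markers summed to 23.5 and 31.3 CPM in endothelial sums and to 430 and 10.1 CPM in stellate sums, where 1 cell held all 55 Cd74 UMIs of replicate 1. Acinar markers summed to at most 151 CPM and duct markers to at most 212 CPM in any of the 4 sums.

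The stellate type was not uniform. The authors' separate clustering of transcripts divided it into cluster 14 (53 and 15 cells) and cluster 11 (64 and 12 cells), with 1 cell elsewhere. Cluster 14 carried Rgs5 at 12900 and 8580 CPM and Myh11, smooth muscle myosin, at 974 and 1320 CPM. Cluster 11 of replicate 1 carried the fibroblast proteoglycans Dcn at 10700 CPM and Lum at 1600 CPM and the collagen gene Col1a1 at 2710 CPM. Cluster 11 of replicate 2 was of another kind: it carried Sox10, a transcription factor of Schwann cells, at 268 CPM, and 9 of its 12 cells had a Schwann marker UMI, against 0 of 64 in replicate 1. The stellate sum of replicate 1 therefore joined pericyte-marker and collagen-rich cells, and that of replicate 2 joined pericyte-marker and Schwann-marker cells. In stellate replicate 2 all 43 Dcn UMIs lay in 1 cell.

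Transcript shares were not used to form the gene-count clusters, so they were compared first. Within a gene, the share of each annotated transcript in the gene's UMIs was tested between the types with edgeR's diffSpliceDGE, with the library as a block. Of 392 genes with at least 2 transcripts above the filter, 3 differed at an adjusted p under 0.05 (0.765%), and of 838 transcripts 3 did (0.358%), while 36 transcripts had an unadjusted p under 0.05. In simulated data of these sums, without a library effect, the 2 leading transcripts of a gene swapped most of their share between the types. Smaller changes in share were not simulated. Of the swaps, 71.4% were recovered, and all 13 (100%) where each sum held at least 20 UMIs of the gene. Only 56 genes had that depth in all 4 sums. In 38 of them a transcript moved the same way in both libraries, and its difference had a median of 9.13 percentage points. Only S100a16 of the 3 genes met that depth, and without cells carrying markers of another type it did not. Slc9a3r2 and Anp32a fell below that depth and are named because they complete the count, after their values were seen. In each of the 3 genes the transcripts concerned have different first exons.

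Slc9a3r2 encodes a PDZ-domain scaffold that ties membrane proteins to the actin cytoskeleton (ENSMUSG00000002504, chr17:24639286-24650327 of GRCm38, minus strand). Transcript Slc9a3r2-202 made up 77 of 153 UMIs (50.3%) in endothelial replicate 1 and 57 of 94 (60.6%) in replicate 2. In stellate cells it made up 1 of 19 (5.26%) and 0 of 27, for which a count of 0 gives an upper bound of 12.8% by the exact binomial interval. The difference was 52.9 percentage points with an adjusted p of 0.0095. The transcript was present in 47 of 74 endothelial cells with the gene in replicate 1 and in 9 of 9 in replicate 2. In alpha, beta and PP cells its share was 0%, and in delta cells it was 0 and 2.63%, over 2 to 38 UMIs of the gene per sum. The call was lost without endothelial replicate 1 (adjusted p = 0.53), without endothelial replicate 2 (0.36) and without stellate replicate 2 (0.46). Slc9a3r2 was also not among the genes called without the replicate block, with 20 UMIs per transcript or with UMIs thinned to equal totals. Nor was the gene called for usage with the duct-marker cluster included or against either stellate transcript cluster alone. Slc9a3r2 as a gene was also higher in endothelial cells, at 1310 and 2080 CPM against 161 and 322 CPM (log2 fold change 2.55 ± 0.27, SE, adjusted p = 1e-05).

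Slc9a3r2-202 starts inside the gene, 5337 bases downstream of the start of Slc9a3r2-201. Its first exon (chr17:24644819-24644990) is in no other transcript shown here, and it takes the place of the first 2 coding exons of Slc9a3r2-201. The annotated coding lengths are 226 and 337 codons. The bases just upstream of both starts and the start of the coding part of Slc9a3r2-202 are printed because they are what separates the endothelial transcript from the other. GC boxes (GGGCGG, either strand) are in capitals in the upstream stretches, and the start codon is in capitals in the coding stretch.
Slc9a3r2-201 upstream, chr17:24650328-24650555, minus strand: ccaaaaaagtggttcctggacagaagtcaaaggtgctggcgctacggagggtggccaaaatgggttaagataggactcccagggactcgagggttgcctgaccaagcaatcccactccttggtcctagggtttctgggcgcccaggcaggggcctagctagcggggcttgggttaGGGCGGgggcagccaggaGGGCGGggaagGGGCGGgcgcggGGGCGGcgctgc
Slc9a3r2-202 upstream, chr17:24644991-24645207, minus strand: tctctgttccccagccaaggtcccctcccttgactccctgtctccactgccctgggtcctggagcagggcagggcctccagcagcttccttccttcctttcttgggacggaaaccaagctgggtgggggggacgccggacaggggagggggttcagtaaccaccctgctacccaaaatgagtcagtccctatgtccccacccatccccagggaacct
Slc9a3r2-202 coding part of exon 1, chr17:24644819-24644899, minus strand: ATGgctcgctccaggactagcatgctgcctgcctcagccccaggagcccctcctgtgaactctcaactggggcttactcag
The upstream stretch of Slc9a3r2-201 held 4 GC boxes and 65.4% G or C, and that of Slc9a3r2-202 held no GC box and 62.7% G or C. Over 32817 windows of 250 bases upstream of RefSeq starts, 32.7% held a GC box, 12.4% a TATA box (TATAAA) and 12% an ETS core (CCGGAA), searched on both strands, and the median was 52.4% G or C. Neither stretch held a TATA box or an ETS core. Upstream sequence is from RefSeq and coding sequence from GENCODE M21, both of GRCm38.

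**Figure D2:**
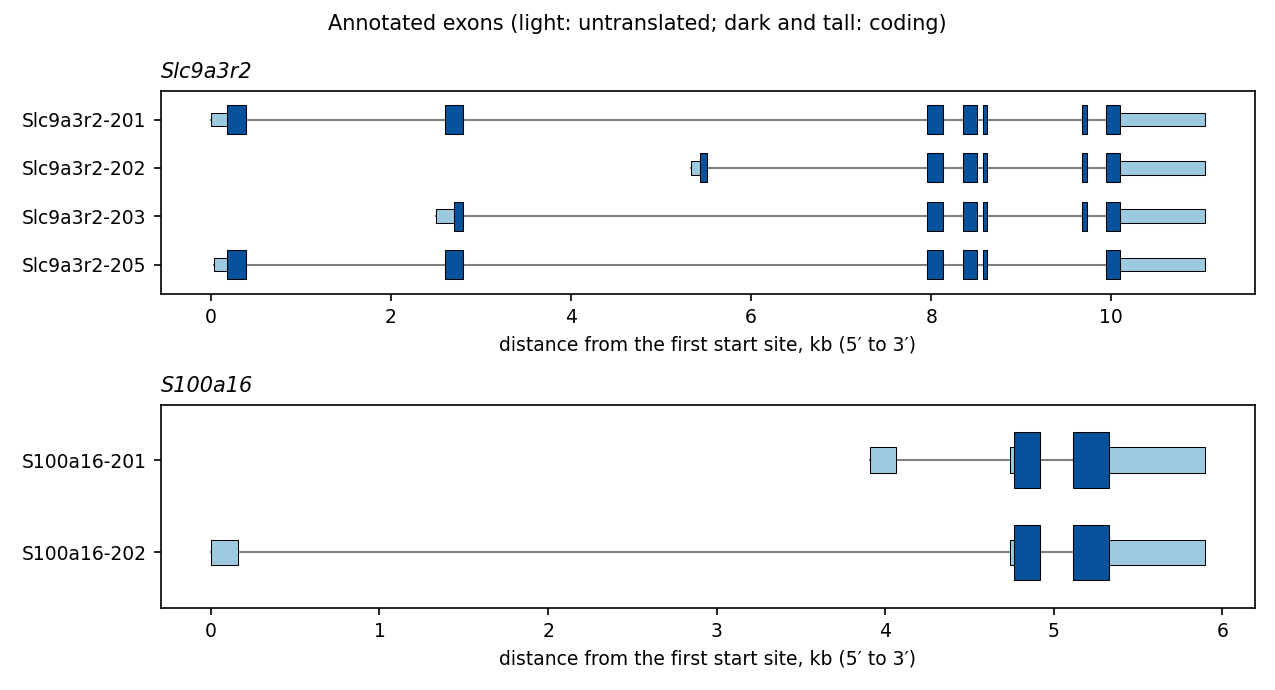
Annotated exons of Slc9a3r2 (top) and S100a16 (bottom) against distance in kb from the first start site, with coding parts dark and tall and untranslated parts light. Slc9a3r2-202 begins 5337 bases after Slc9a3r2-201 and lacks its first 2 coding exons, and the S100a16 transcripts differ in a noncoding first exon, with starts 3907 bases apart.

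S100a16 encodes a calcium-binding protein with EF hands (ENSMUSG00000074457, chr3:90537254-90543151, plus strand). S100a16-202 made up 7 of 61 UMIs (11.5%) in endothelial replicate 1 and 1 of 23 (4.35%) in replicate 2. In stellate cells it made up 20 of 21 (95.2%) and 16 of 24 (66.7%). Endothelial cells were low and stellate cells high, with a difference of 73.0 percentage points and an adjusted p of 0.0095. Endothelial cells used S100a16-201 in its place, in 39 of 43 and 8 of 9 cells with the gene. Delta and PP cells, with 27 to 196 UMIs of the gene, stood with stellate cells at 92.9 to 96.7% S100a16-202. Nearly all stellate UMIs of the gene, 18 of 21 and 23 of 24, came from transcript cluster 11, and so did all 8 UMIs of S100a16-201 in stellate replicate 2, where the Schwann-marker cells lie. The level of the gene did not pass the test, at 370 and 407 CPM in endothelial and 161 and 252 CPM in stellate cells (log2 fold change 0.66 ± 0.34, adjusted p = 0.16). The call on the share was lost without endothelial replicate 1 (adjusted p = 0.40) and without the replicate block (0.076). S100a16 was also not among the genes called with UMIs thinned to equal totals or with the duct-marker cluster included. Nor was it called for usage against the transcript cluster of pericyte-marker stellate cells alone. Without cells carrying markers of another type, replicate 2 held fewer UMIs of the gene than the depth of 20 in both types. S100a16-202 then made up 1 of 16 UMIs (6.25%) in endothelial and 6 of 7 (85.7%) in stellate replicate 2, and the gene was still called.

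Both S100a16 transcripts hold the same 372 coding bases and differ in a noncoding first exon, at chr3:90537254-90537417 in S100a16-202 and chr3:90541161-90541317 in S100a16-201. The bases upstream of each start are given, with the GC box in capitals.
S100a16-202 upstream, chr3:90537004-90537253, plus strand: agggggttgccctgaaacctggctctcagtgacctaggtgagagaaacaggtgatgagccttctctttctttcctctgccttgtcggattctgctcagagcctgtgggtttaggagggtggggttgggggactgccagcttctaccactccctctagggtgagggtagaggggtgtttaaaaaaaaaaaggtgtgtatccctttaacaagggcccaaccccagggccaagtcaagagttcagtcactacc
S100a16-201 upstream, chr3:90540896-90541145, plus strand: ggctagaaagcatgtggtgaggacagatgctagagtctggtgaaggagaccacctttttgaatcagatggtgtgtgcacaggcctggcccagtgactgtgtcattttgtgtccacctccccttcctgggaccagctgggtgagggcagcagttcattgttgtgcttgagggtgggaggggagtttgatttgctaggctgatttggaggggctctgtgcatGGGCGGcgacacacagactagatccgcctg
The stretch before the start used in endothelial cells held 1 GC box and 55.6% G or C, and the other held none and 53.2% G or C. No TATA box or ETS core was found in either.

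Anp32a encodes a nuclear phosphoprotein that binds histones. Anp32a-203 had 0 of 50 and 0 of 16 UMIs in endothelial cells and 8 of 20 (40.0%) and 2 of 7 (28.6%) in stellate cells (adjusted p = 0.015). The exact binomial intervals reached up to 7.11 and 20.6% in endothelial cells and ran from 19.1 to 63.9% and from 3.67 to 71.0% in stellate cells. Alpha, beta, delta and PP cells stood at 21.6 to 37.6%, so the endothelial sums were the low ones. The call was lost without endothelial replicate 1 (adjusted p = 0.52) and with the duct-marker cluster included (1.0). Anp32a was also not among the genes called without stellate replicate 1, without stellate replicate 2, without cells carrying markers of another type and without the highest doublet scores. The same held with 20 UMIs per transcript, with UMIs thinned to equal totals and against either stellate transcript cluster alone. Anp32a-203 starts 573 bases downstream of Anp32a-201 on chromosome 9 and has its own coding first exon, shown beside that of Anp32a-201 with the start codon in capitals (GRCm38, plus strand).
Anp32a-201, chr9:62341501-62341554: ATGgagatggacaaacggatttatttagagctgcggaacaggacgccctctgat
Anp32a-203, chr9:62341948-62342010: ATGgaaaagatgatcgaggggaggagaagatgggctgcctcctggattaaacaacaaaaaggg
Anp32a-203 is annotated with 5 exons and Anp32a-201 with 7. The annotation of Anp32a-203 stops inside exon 5 of Anp32a-201, still in coding sequence, so a different end is not shown. The annotated coding lengths are 741 bases for Anp32a-201 and 594 for Anp32a-203, the latter cut where its annotation stops.

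**Figure D3:**
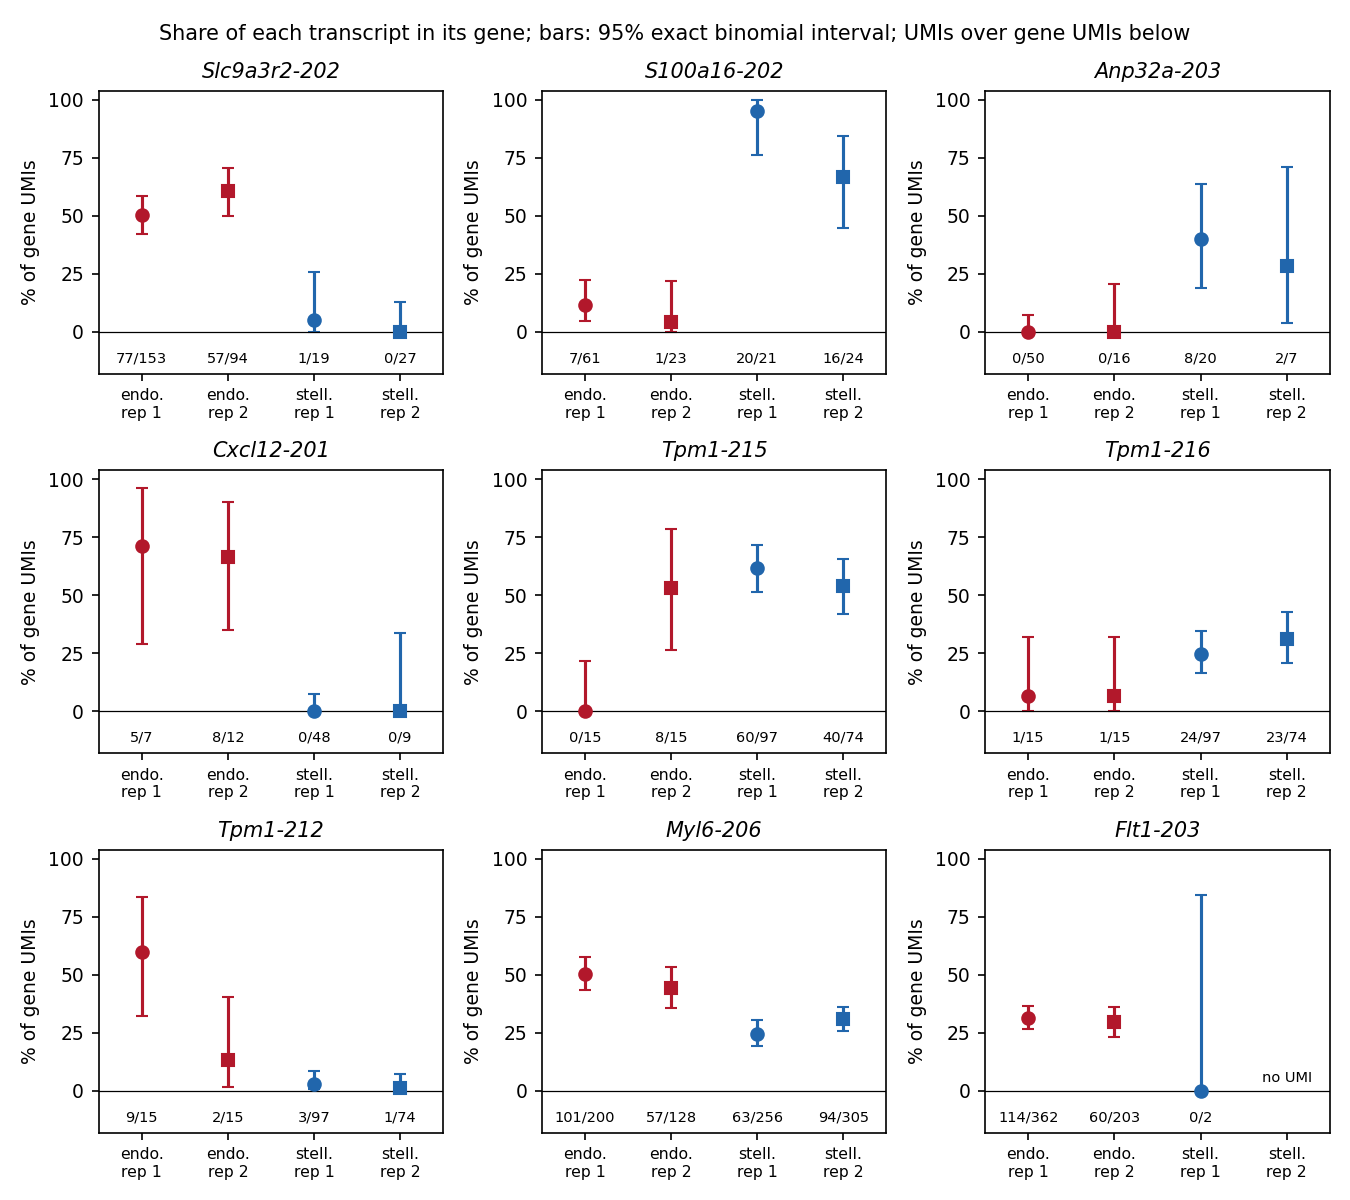
Share of 9 transcripts in the UMIs of their gene (vertical axis, percent) in endothelial (red) and stellate (blue) replicates, with 95% exact binomial intervals and the UMIs of the transcript over those of the gene below each point. Slc9a3r2-202 stands at 50.3 and 60.6% in endothelial cells and S100a16-202 at 95.2 and 66.7% in stellate cells, while Tpm1-215 in endothelial replicate 2 (8 of 15) comes from 1 cell.

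Other transcripts moved by large amounts without passing the test. Cxcl12, a chemokine gene whose transcripts were looked up after their values were seen, was read as Cxcl12-201 in 5 of 7 and 8 of 12 endothelial UMIs (71.4 and 66.7%) and in 0 of 48 and 0 of 9 stellate UMIs (adjusted p = 0.071). The endothelial UMIs of the gene lay in 6 cells of replicate 1 and 3 of replicate 2. In replicate 2, 1 cell held 6 of the 8 Cxcl12-201 UMIs. Stellate cells read nearly all Cxcl12 UMIs as Cxcl12-202, the alpha form of 267 coding bases, with 47 of 48 and 8 of 9 UMIs, the latter all in 1 cell. Cxcl12-201 is the gamma form of 357 coding bases and is known for its long basic tail, printed here with the bases that Cxcl12-202 lacks in capitals.
Cxcl12-201 coding end, chr6:117176086-117176176 for the capitals, plus strand: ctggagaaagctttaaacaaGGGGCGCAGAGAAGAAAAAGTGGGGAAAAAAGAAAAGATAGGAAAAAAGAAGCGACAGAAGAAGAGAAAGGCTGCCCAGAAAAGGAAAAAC
Without cells carrying markers of another type the adjusted p was 0.0004, and without the replicate block it was 0.53. The level of the Cxcl12 gene did not pass the test either, at 82.2 and 360 CPM in endothelial and 461 and 101 CPM in stellate cells.

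Flt1 encodes VEGF receptor 1, and in endothelial cells its UMIs divided between the membrane receptor Flt1-202, with 66.9 and 69.5%, and Flt1-203, with 114 of 362 (31.5%) and 60 of 203 (29.6%). Flt1-203 is the soluble receptor, which ends in a readthrough into an intron and lacks the membrane and kinase parts. Its own coding end follows the last shared bases, in capitals.
Flt1-203 coding end, chr5:147639133-147639224 for the capitals, minus strand: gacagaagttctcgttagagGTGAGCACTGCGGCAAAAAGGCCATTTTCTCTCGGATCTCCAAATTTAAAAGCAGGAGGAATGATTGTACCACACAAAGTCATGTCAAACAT
Both endothelial libraries thus gave nearly the same division. Stellate cells held 2 Flt1 UMIs, too few for a share.

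Myl6, the essential myosin light chain of nonmuscle and smooth muscle myosin, is one of the genes with well-known isoforms and has a pair of coding ends. The coding end of each transcript, after the last shared bases, is in capitals.
Myl6-201, chr10:128491008-128491033 for the capitals, minus strand: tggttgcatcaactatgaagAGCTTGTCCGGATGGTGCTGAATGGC
Myl6-206, chr10:128491739-128491764 for the capitals, minus strand: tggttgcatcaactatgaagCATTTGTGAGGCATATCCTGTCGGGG
Myl6-206 made up 50.5 and 44.5% in endothelial cells (200 and 128 UMIs of the gene) and 24.6 and 30.8% in stellate cells (256 and 305 UMIs). These shares did not overlap between the types, but the adjusted p was 0.21. Other transcripts also had shares without overlap. Hspa5-202 stood at 60.7 and 66.7% in endothelial and 42.1 and 48.3% in stellate cells, with an unadjusted p of 0.35 by the same test. How many did so was not counted. Against stellate transcript cluster 14 alone, at 21.4 and 20.8%, the adjusted p was 0.0019, and without cells carrying other markers it was 0.006. In cluster 11 the share was 29.9% in replicate 1 and 76.4% in replicate 2, the library with Schwann markers. Those clusters were made from transcripts, so their difference in share is a description.

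Tpm1, tropomyosin 1 of actin filaments, uses one of a pair of exons of 126 bases, of which the upstream one, in Tpm1-215, is known as the smooth muscle exon. The exons are set side by side with their 66 differing bases in capitals (chromosome 9, minus strand).
Tpm1-215, chr9:67048124-67048249: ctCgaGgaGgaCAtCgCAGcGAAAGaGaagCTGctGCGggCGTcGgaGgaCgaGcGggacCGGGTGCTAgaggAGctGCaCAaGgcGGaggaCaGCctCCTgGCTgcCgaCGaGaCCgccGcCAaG
Tpm1-216, chr9:67047786-67047911: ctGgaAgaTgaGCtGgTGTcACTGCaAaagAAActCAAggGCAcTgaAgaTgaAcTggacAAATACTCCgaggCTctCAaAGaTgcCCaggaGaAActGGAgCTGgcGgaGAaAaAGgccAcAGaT
Stellate cells read Tpm1-215 in 60 of 97 and 40 of 74 UMIs (61.9 and 54.1%) and Tpm1-216 in 24.7 and 31.1%. Endothelial cells held 15 and 15 UMIs of the gene, with 0 and 8 of Tpm1-215, and the 8 all lay in the 1 cell with pericyte markers. They held 9 and 2 UMIs of Tpm1-212, a short tropomyosin of 248 codons, of 15 each, against 3.09 and 1.35% in stellate cells (adjusted p = 0.071, and 0.0002 without cells carrying other markers, when endothelial replicate 2 kept no Tpm1 UMI). Within stellate cells, transcript cluster 14 of replicate 1 read 72.8% Tpm1-215 and 17.3% Tpm1-216, and cluster 11 of replicate 1 read 6.25% and 62.5%.

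Of the 67 genes with well-known isoforms, 21 could be tested for usage and 0 passed with diffSpliceDGE, while limma's diffSplice called Myl6 and Tpm1. Rps24, a ribosomal protein with alternative last exons, stood at 66.7 and 66.7% Rps24-202 in endothelial cells and at 57.8 and 54.9% in stellate cells. Within stellate cells it was at most 25.7% in cluster 14 and at least 73.8% in cluster 11. Alpha, beta, delta and PP cells read Rps24-202 in 93.0 to 95.8% of UMIs. Clta, the clathrin light chain, read Clta-206 in 70.5 and 81.5% of endothelial and 77.4 and 64.3% of stellate UMIs, which overlapped. Tsc22d1-214 stood at 12.1 and 7.78% in endothelial and 1.96 and 2.00% in stellate cells, with an unadjusted p of 0.021 and an adjusted p of 0.88.

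Gene levels were tested in 2301 genes with edgeR's quasi-likelihood test and Benjamini-Hochberg adjustment, and 727 (31.6%) had an adjusted p under 0.05. Of these, 356 (15.5% of the genes tested) were higher in endothelial cells and 371 (16.1%) in stellate cells, and the median log2 fold change of all genes was -0.13. The cells had been grouped by these same counts, so the calls describe how the clusters differ and are no evidence that there are separate types. The share of calls higher in endothelial cells was 49.0%. It became 62.6% without TMM scaling, which shifted the median of all genes by 0.25, and 60.9% when only the 4 sums were fitted (280 and 180 genes). In simulated data of this size the test found 31% of 2-fold and 91% of 4-fold changes. Without the replicate block 585 genes (25.4%) were called, and with DESeq2 618 (26.9%; 15.2% higher in endothelial and 11.6% in stellate cells). Without cells carrying markers of another type, 301 (18.3%) and 288 (17.5%) of 1648 genes were called, and without endothelial replicate 1, 217 and 217. Against stellate transcript cluster 14 alone 232 (20.5%) and 252 (22.3%) of 1130 genes were called, and against cluster 11 alone 207 (16.8%) and 182 (14.8%) of 1229. The lists below leave out the 12 markers. A gene had to reach the count filter in one type to be tested, so counts among tested genes describe the lists and support nothing further.

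**Figure D4:**
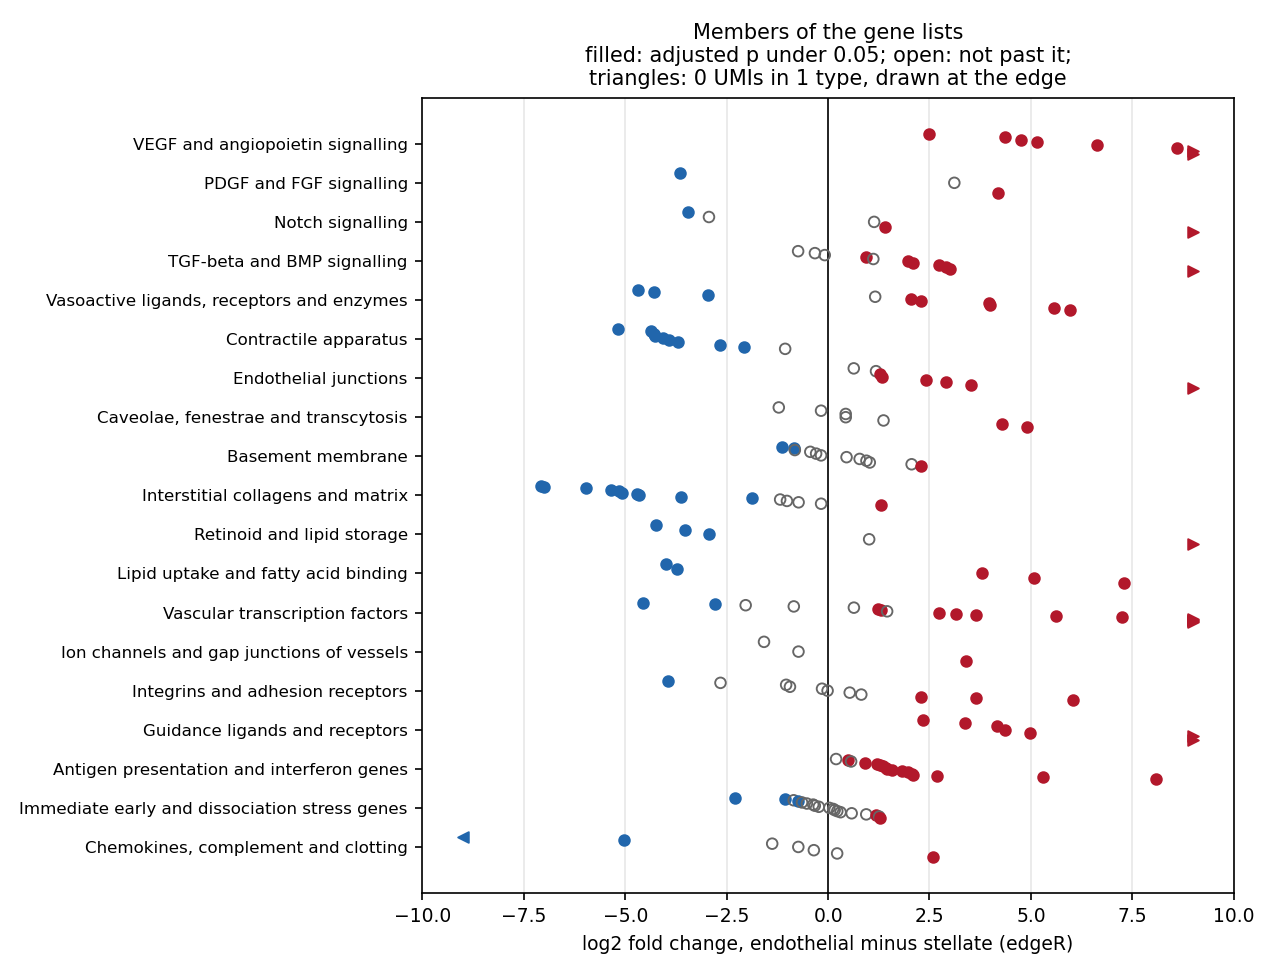
Log2 fold change of each tested member of 19 gene lists (points; horizontal axis, endothelial minus stellate), filled where the adjusted p was under 0.05 and drawn as triangles at the edge where 1 type had 0 UMIs. VEGF receptors and guidance genes lie to the right, contractile and interstitial matrix genes to the left, and immediate early genes lie on both sides.

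Of the 15 VEGF and angiopoietin signalling genes, 8 of 8 tested were higher in endothelial cells, beside 15.5% of all genes. The median log2 fold change was 5.89, or 4.96 with genes at 0 UMIs set to their lower bound. DESeq2 called 6 of the 8, and not Tek (adjusted p = 0.48) or Flt4 (0.42). Among the receptors, Flt1 stood at 4120 and 3900 CPM in endothelial and 15.4 and 0 CPM in stellate cells (log2 fold change 8.59 ± 0.50, adjusted p = 6.8e-08; 465-fold by pooled UMIs, 95% counting interval 128 to 3850). Nrp1, the VEGF co-receptor neuropilin 1, stood at 1980 and 1390 against 353 and 141 CPM (2.50 ± 0.31, adjusted p = 4.4e-05). Tie1, an orphan partner of the angiopoietin receptor, stood at 546 and 501 against 7.68 and 0 CPM (122-fold, 21.6 to 4880, adjusted p = 0.00015). Ptprb, the phosphatase that restrains the angiopoietin receptor, stood at 1600 and 862 CPM against no UMI, at least 107-fold higher with the stellate sums at a floor of 3 UMIs. Tek, the angiopoietin receptor itself, stood at 205 and 172 against 0 and 10.1 CPM (adjusted p = 0.0098), and it lost its call without endothelial replicate 1 (0.051) and without stellate replicate 1 (0.17). Flt4 and Vegfc, a receptor and ligand of the lymphatic branch, also lost theirs without stellate replicate 1 (0.15 and 0.068), which left 5 of the 8 called. The ligands Vegfa and Vegfb had 2 and 0 UMIs in endothelial and 6 and 5 in stellate cells, too few to test.

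**Figure D5:**
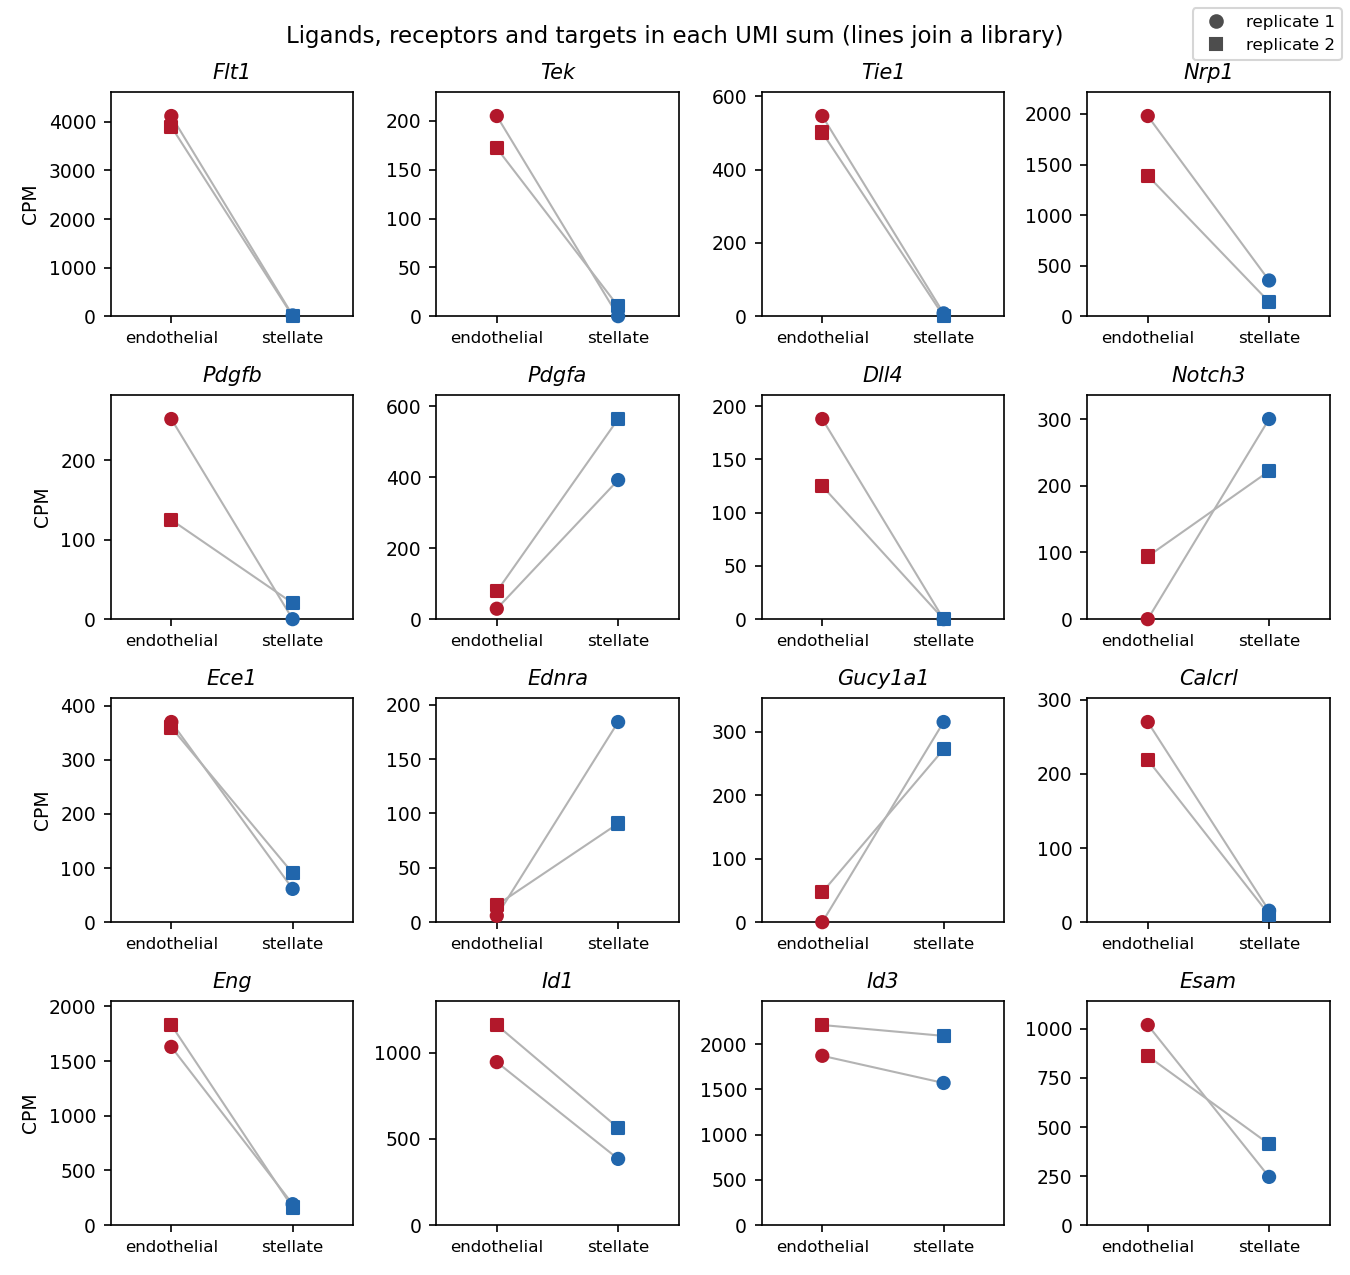
CPM (vertical axis, linear, from 0) of 16 ligand, receptor and target genes in endothelial (red) and stellate (blue) cells, with circles for replicate 1, squares for replicate 2 and lines joining the sums of a library. Pdgfb and Dll4 are high in endothelial cells, Pdgfa, Notch3, Ednra and Gucy1a1 are high in stellate cells, and Id3 differs little.

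The PDGF ligands were divided between the types. Pdgfb, the ligand that recruits pericytes, stood at 252 and 125 CPM in endothelial and 0 and 20.2 CPM in stellate cells (25.0-fold by pooled UMIs, counting interval 6.57 to 212, adjusted p = 0.012). Pdgfa, a ligand of PDGF receptor alpha, was the reverse at 29.4 and 78.3 against 392 and 564 CPM (log2 fold change -3.65 ± 0.42, adjusted p = 2.7e-05). Neither gene's groups overlapped, as in 1237 of the 2301 genes tested (53.8%). The call on Pdgfb was lost without endothelial replicate 1 and without stellate replicate 1. That on Pdgfa was kept as each of the 4 sums was left out. Pdgfra, the fibroblast receptor, had 15 UMIs, all in stellate replicate 1.

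Of the Notch genes 5 of 13 could be tested. Dll4, a ligand, stood at 188 and 125 CPM in endothelial cells against no stellate UMI, at least 13.1-fold higher (adjusted p = 0.0061). Notch1 stood at 182 and 251 against 53.8 and 80.6 CPM (1.40 ± 0.44, adjusted p = 0.025). Notch3, the mural cell receptor, stood at 0 and 94 against 300 and 222 CPM (-3.45 ± 0.95, adjusted p = 0.014), and all 6 endothelial UMIs lay in cells that carried markers of another type. Without those cells the adjusted p of Notch3 was 4.7e-05. Heyl, a target of Notch3, did not pass the test (0 and 78.3 against 131 and 181 CPM, adjusted p = 0.068; 0.0024 without those cells), nor did Hes1 (adjusted p = 0.17). Without stellate replicate 1 no Notch gene was called (Dll4 0.051, Notch1 0.16, Notch3 0.094). Without endothelial replicate 1, Notch1 (0.075) and Notch3 (0.19) lost theirs, and without endothelial replicate 2 Notch1 did (0.066).

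In TGF-beta and BMP signalling, 7 of 11 tested were higher in endothelial and 0 in stellate cells, beside 15.5 and 16.1% of all genes. The median was 1.97. Eng, the co-receptor endoglin, stood at 1630 and 1830 against 192 and 161 CPM (3.00 ± 0.28, adjusted p = 1.1e-05). Its partner receptors followed: Acvrl1, or ALK1, at 317 and 345 against 84.5 and 40.3 CPM (adjusted p = 0.016) and Bmpr2 at 217 and 235 against 61.5 and 30.2 CPM (0.0092). The inhibitory Smad genes were in the same direction, with Smad7 at 358 and 219 against 69.1 and 0 CPM (adjusted p = 0.0048). The targets were not as far apart. Id1 stood at 945 and 1160 against 384 and 564 CPM (0.93 ± 0.31, adjusted p = 0.035; 0.15 without cells carrying other markers, and 0.32, 0.15 and 0.12 without endothelial replicate 1, stellate replicate 1 and stellate replicate 2). Id3 stood at 1870 and 2210 against 1570 and 2090 CPM, with overlapping groups (-0.08 ± 0.20, adjusted p = 0.80). Acvrl1 passed only with all 4 sums, with adjusted p of 0.057, 0.057, 0.051 and 0.077 as each was left out. Some of the 7 calls were lost as each of the 4 sums was left out.

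Vasoactive genes fell on both sides, 6 of 10 tested higher in endothelial and 3 in stellate cells, beside 15.5 and 16.1% of all genes. Ece1, which makes active endothelin, stood at 370 and 360 against 61.5 and 90.7 CPM (2.04 ± 0.31, adjusted p = 0.00024). Its contractile receptor Ednra was the reverse at 5.87 and 15.7 against 184 and 90.7 CPM (16.8-fold, counting interval 4.31 to 145, adjusted p = 0.0062), a call lost without endothelial replicate 1 (0.13) and stellate replicate 1 (0.10). Gucy1a1, a subunit of the nitric oxide receptor, stood at 0 and 47 against 315 and 272 CPM (23.1-fold, counting interval 7.59 to 115, adjusted p = 0.0011), and Gucy1b1, its partner subunit, also was higher in stellate cells (0.0057; 0.11 without endothelial replicate 1 and 0.054 without stellate replicate 1). On the endothelial side were Ace, angiotensin converting enzyme, at 399 and 219 against 7.68 and 0 CPM (80.3-fold, 14 to 3210, adjusted p = 0.001), and the adrenomedullin receptor parts. Ramp2 stood at 1090 and 1270 against 277 and 101 CPM (2.30 ± 0.30, adjusted p = 7.7e-05) and Ramp3 at 476 and 517 against 0 and 20.2 CPM (55.8-fold, 15.1 to 467, adjusted p = 0.00032). Calcrl, their receptor, stood at 270 and 219 against 15.4 and 10.1 CPM (0.0063; 0.059 without endothelial replicate 1 and 0.080 without stellate replicate 1). Nos3, endothelial nitric oxide synthase, had 19 UMIs against 2 and was not tested, and Edn1 had 1 UMI in all.

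In the contractile apparatus, 9 of 10 tested were higher in stellate cells, beside 16.1% of all genes, and 0 in endothelial cells (median -4.00). Acta2, smooth muscle actin, stood at 0 and 674 CPM in endothelial and 2600 and 3140 CPM in stellate cells (-4.08 ± 0.62, adjusted p = 0.00056). Tagln, or transgelin, stood at 0 and 345 against 3560 and 2500 CPM (-5.17 ± 0.58, adjusted p = 3e-05), and Myl9, the regulatory light chain, at 5.87 and 595 against 2760 and 3280 CPM (-4.28 ± 0.54, adjusted p = 5.1e-05). The endothelial UMIs of replicate 2 came from cells with markers of another type: without those cells Acta2, Tagln and Myl9 were at 0 CPM in that sum. Cald1, caldesmon, kept an endothelial level of 460 and 357 CPM without those cells, against 2930 and 1870 CPM. DESeq2 called 4 of the list, and it did not call Acta2 (adjusted p = 0.70), Tagln (0.077), Myl9 (0.14) or Myh11 (0.64). Acta2 was also not called without the replicate block (0.11). Against stellate transcript cluster 11 alone, 2 of 7 tested members were called.

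Of interstitial matrix genes, 10 of 15 tested were higher in stellate cells, beside 16.1% of all genes, and 1 in endothelial cells (median -4.65). Dcn, the collagen-binding proteoglycan decorin, stood at 0 and 125 against 5850 and 433 CPM (-7.00 ± 0.79, adjusted p = 3.3e-05), and Bgn, biglycan, at 17.6 and 188 against 3030 and 675 CPM (-5.16 ± 0.61, 4.4e-05). Mgp, matrix Gla protein, stood at 17.6 and 846 against 9630 and 6440 CPM (-5.09 ± 0.75, 0.00018). Stellate replicate 1 was far above replicate 2 in Dcn and in the collagen genes, as in its fibroblast markers, which summed to 6940 and 474 CPM; their part in the result was not tested. The collagen calls rested on the replicate 1 sums. Col1a2 (adjusted p = 0.002) had 0.17 without endothelial replicate 1 and 0.28 without stellate replicate 1, Col6a1 (0.0016) had 0.17 and 0.35, and Postn, or periostin (0.0064), had 0.28 and 0.46, so that 6 and 5 of the list were called. DESeq2 called 2 stellate members and did not call Dcn (0.60) or Mgp (0.11). The exception was Timp3, a matrix-bound protease inhibitor that also blocks VEGF receptor 2, at 2370 and 4100 CPM in endothelial against 922 and 1160 CPM in stellate cells (1.31 ± 0.19, adjusted p = 0.00022). Vim, vimentin, stood at 646 and 689 against 1710 and 2560 CPM (-1.88 ± 0.24, adjusted p = 5.5e-05).

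Of the basement membrane genes, a layer that both types build, 1 of 12 tested was higher in endothelial and 2 in stellate cells (median 0.14), beside 15.5 and 16.1% of all genes tested. Hspg2, perlecan, stood at 898 and 799 against 177 and 111 CPM (2.29 ± 0.38, adjusted p = 0.00055). Sparc, a collagen chaperone, stood at 5030 and 3590 against 10700 and 5420 CPM (-1.13 ± 0.25, adjusted p = 0.0035; 0.12 both with DESeq2 and without the block). Col4a1, the type IV collagen chain, stood at 1460 and 971 against 1020 and 474 CPM, with overlapping groups (0.46 ± 0.24, adjusted p = 0.17). Sparcl1, a relative of Sparc, was the other stellate call (adjusted p = 0.017; 0.61 without endothelial replicate 1 and 0.34 without stellate replicate 1). Neither stellate call was made with DESeq2, without the block or with only the 4 sums. Without TMM scaling, 3 members were higher in endothelial and 1 in stellate cells.

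Of the junction genes, 6 of 8 tested were higher in endothelial cells, beside 15.5% of all genes, and 0 in stellate cells (median 1.87). Icam2, an adhesion molecule of endothelial contacts, stood at 564 and 736 CPM against no UMI, at least 46.7-fold higher, and F11r, or JAM-A, stood at 317 and 266 against 30.7 and 10.1 CPM (adjusted p = 8.9e-05). Esam, another junction adhesion molecule, kept a stellate level of 246 and 413 CPM against 1020 and 862 CPM (1.32 ± 0.31, adjusted p = 0.0045; 0.13 without endothelial replicate 1 and 0.097 without stellate replicate 1). Cldn5, a claudin of tight vessels, had 6 UMIs in endothelial and 0 in stellate cells and was not tested.

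Among caveolar and transcytosis genes, 2 of 7 tested were higher in endothelial cells, beside 15.5% of all genes tested. Ehd4, a membrane-shaping ATPase of the endocytic system, stood at 1780 and 1610 against 38.4 and 60.5 CPM (4.89 ± 0.31, adjusted p = 6.8e-08). Cavin2 stood at 581 and 376 against 38.4 and 0 CPM (adjusted p = 0.00044). The shared coat genes did not pass: Cav1, caveolin 1, stood at 241 and 235 against 154 and 353 CPM, with overlapping groups (-0.17 ± 0.56, adjusted p = 0.85).

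Of the lipid uptake genes, 3 of 5 tested were higher in endothelial and 2 in stellate cells, beside 15.5 and 16.1% of all genes. Gpihbp1, which carries lipoprotein lipase across endothelium, stood at 1020 and 548 against 7.68 and 0 CPM (204-fold, counting interval 36.2 to 8090, adjusted p = 2.9e-05; 0.17 with DESeq2). Lpl, the lipase itself, was the reverse at 47 and 0 against 714 and 141 CPM (-4.00 ± 0.69, adjusted p = 0.0006). Fabp4, a fatty acid carrier, stood at 1060 and 533 against 76.8 and 20.2 CPM (3.80 ± 0.45, adjusted p = 4.7e-05). Of the retinoid genes tested, Dhrs3, a retinal reductase, had no stellate UMI and stood at 176 and 251 CPM, at least 15-fold higher. Lrat, the retinol esterase of quiescent stellate cells, had 0 UMIs in all 4 sums. Rbp4, at 23.5 and 31.3 against 269 and 232 CPM, is also a delta cell marker, and delta markers summed to 164 and 172 CPM in endothelial and 3600 and 564 CPM in stellate sums; their part in the result was not tested.

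Of the vascular transcription factors, 11 of 17 tested were higher in endothelial and 2 in stellate cells, beside 15.5 and 16.1% of all genes. The median was 2.74. Sox18 stood at 887 and 642 against 7.68 and 0 CPM (188-fold, counting interval 33.4 to 7470, adjusted p = 5.1e-05), and Klf2, induced by flow, at 634 and 611 against 23 and 80.6 CPM (3.64 ± 0.68, adjusted p = 0.0011). Erg, an ETS factor of endothelial identity, stood at 153 and 141 CPM against no stellate UMI, at least 11.4-fold higher (adjusted p = 0.012; 0.13 without stellate replicate 1). Epas1, or HIF-2 alpha, was less far apart at 881 and 862 against 361 and 252 CPM (1.23 ± 0.34, adjusted p = 0.012; 0.12 without endothelial replicate 1, 0.075 without stellate replicate 2, and 0.10 without cells carrying other markers). The stellate members were Tcf21, at 0 and 31.3 against 223 and 131 CPM (adjusted p = 0.019; 0.23 without endothelial replicate 1 and 0.36 without stellate replicate 1), and Nr2f2 (0.021; 0.23 without stellate replicate 1). Some of the 11 calls were lost as each of the 4 sums was left out, and DESeq2 called 5.

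All 7 tested guidance genes, of 19 in the list, were higher in endothelial cells, beside 15.5% of all genes. The median was 4.37, or 4.16 with genes at 0 UMIs at their bound. Robo4, which steadies vessels, stood at 393 and 376 CPM against no UMI, at least 29.7-fold higher (adjusted p = 0.0012; 0.29 with DESeq2), and Efna1, an ephrin ligand, stood at 299 and 376 against 7.68 and 10.1 CPM (36.7-fold, counting interval 9.82 to 309, adjusted p = 0.0001). Plxna2, a semaphorin receptor, stood at 229 and 110 against 7.68 and 10.1 CPM (22.5-fold, 5.89 to 192, adjusted p = 0.001). The other members lost their calls without endothelial replicate 1 and without stellate replicate 1, which left 3 each time: Sema7a had 0.056 and 0.066, Plxnd1 0.31 and 0.40, Efnb2 0.081 and 0.18, and Ephb4 0.22 and 0.39. DESeq2 called 4 of the 7. Without endothelial replicate 2 and without stellate replicate 2, 5 of the 7 were called, Efnb2 having 0.054 and 0.090 and Ephb4 0.057 and 0.060. Among integrins and other adhesion receptors, 3 of 11 tested were higher in endothelial and 1 in stellate cells, beside 15.5 and 16.1% of all genes. Itgb1, the common beta chain, stood at 493 and 548 against 638 and 282 CPM (-0.15 ± 0.26, adjusted p = 0.71), while Cd63, a tetraspanin of lysosomes and exosomes, stood at 76.3 and 141 against 1380 and 1110 CPM (-3.94 ± 0.32, adjusted p = 5.6e-07).

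Of antigen presentation and interferon genes, 15 of 17 tested were higher in endothelial cells, beside 15.5% of all genes, and 0 in stellate cells. The median was 1.46. Ly6c1 stood at 5820 and 5330 against 30.7 and 0 CPM (8.09 ± 0.43, adjusted p = 1.8e-08), and Ly6a, or Sca-1, at 4430 and 4650 against 169 and 10.1 CPM (5.30 ± 0.37, 1.4e-07). The class I chains differed less. H2-K1 stood at 1540 and 1600 against 622 and 504 CPM (1.20 ± 0.18, adjusted p = 0.00022), and B2m, their light chain, at 3560 and 3010 against 1390 and 736 CPM (1.36 ± 0.24, 0.00063). Ifitm3 stood at 1670 and 2960 against 1440 and 1760 CPM with overlapping groups (adjusted p = 0.58). The H2, Ly6 and Ifitm genes have near-identical copies between which reads may be divided, so the single members are uncertain. Against stellate transcript cluster 14, 13 of 15 were called, and against cluster 11, 8 of 15. Without endothelial replicate 1, 10 of the 15 calls were left, and with only the 4 sums 9 were.

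Some immediate early genes, which dissociation can induce, were higher in replicate 2 than in replicate 1 of both types. Fos stood at 652 and 5090 CPM in endothelial and 2070 and 4480 CPM in stellate cells, and Atf3 at 41.1 and 1000 against 53.8 and 615 CPM. Of 19 tested, 2 were higher in endothelial and 3 in stellate cells, beside 15.5 and 16.1% of all genes tested. The median of the list was 0.03. The counts were 3 and 1 without TMM scaling, 1 and 1 without the replicate block, 0 and 1 with only the 4 sums, and 2 and 6 without cells carrying markers of another type. They were 3 and 1 without endothelial replicate 1, 2 and 6 without endothelial replicate 2, 1 and 1 without stellate replicate 1 and 1 and 4 without stellate replicate 2. Cebpd, an acute phase transcription factor, stood at 299 and 345 against 1760 and 776 CPM (-2.30 ± 0.31, adjusted p = 8e-05), and Nfkbia, the NF-kB inhibitor, at 1500 and 1440 against 453 and 655 CPM (1.19 ± 0.27, adjusted p = 0.0039; 0.054 without stellate replicate 1). Of the chemokine, complement and clotting genes, 1 of 7 tested was higher in endothelial and 2 in stellate cells, beside the same shares of all genes. The counts were 1 and 4 of 8 without cells carrying markers of another type, 1 and 4 without endothelial replicate 2, and 0 and 2 without stellate replicate 1. Serping1, the C1 inhibitor, stood at 17.6 and 141 against 2080 and 756 CPM (-5.04 ± 0.55, adjusted p = 1.7e-05), and C1s1, a complement protease, stood at 430 and 181 CPM in stellate cells against no endothelial UMI, at least 25.2-fold higher (adjusted p = 0.00089; 0.31 with DESeq2). Stellate cells thus held both the protease and its inhibitor. Thbd, thrombomodulin, stood at 341 and 251 against 61.5 and 20.2 CPM (2.59 ± 0.65, adjusted p = 0.0094; 0.055 without stellate replicate 1).

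Ranked by fitted log2 fold change, without the cell type markers, the top 12 genes on the endothelial side all had 0 stellate UMIs. Their fitted values depend on those zeros, so the rank is not one of measured size, and Flt1, Gpihbp1 and Sox18 have larger pooled ratios than any of the lower bounds here. Beside Ptprb, Icam2 and Robo4 they were Ctla2a, Thrsp, Podxl, Tmem88, Mmrn2, Col13a1, Cmtm8, Ces2e and Exoc3l2. Ctla2a, a protease inhibitor, stood at 957 and 1240 CPM, at least 79.0-fold higher, and Thrsp, a lipogenic nuclear protein, at 728 and 689 CPM, at least 54.9-fold higher. Podxl, a sialomucin of the luminal surface, was at least 47.0-fold higher, and the others lay between 22.2-fold for Exoc3l2 and 42.1-fold for Mmrn2, an endothelial matrix glycoprotein, as lower bounds.

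By the same rule, which leaves out cell type markers such as Dcn, the 12 genes with the lowest fitted values were Mfap4, C1s1, Entpd2, Gpc3, Olfml3, Scn7a, Hand2os1, Ptn, Col6a1, Gsn, Col14a1 and Sod3. Gsn, the actin-severing protein gelsolin, stood at 17.6 and 110 CPM in endothelial and 6680 and 1020 CPM in stellate cells (-6.67 ± 0.82, adjusted p = 4.4e-05). Without cells carrying markers of another type, Gsn stood at 12.8 and 0 against 7900 and 1040 CPM (-9.05). Col6a1, Col14a1 and Sod3 then had no endothelial UMI, and Col14a1 was no longer tested. Ptn, a growth factor for neurites, had 1 endothelial UMI against 753 and 403 CPM in stellate cells, 141-fold by pooled UMIs with a counting interval of 24.9 to 5600. Entpd2, an ectonucleotidase, at 254 and 353 CPM, and Scn7a, a sodium channel known from Schwann cells, at 215 and 343 CPM, had no endothelial UMI and were at least 23.1-fold and 21.1-fold higher. Without cells carrying markers of another type, stellate replicate 2 fell to 166 CPM of Entpd2 (adjusted p = 0.00017), 82.8 CPM of Scn7a and 116 CPM of Ptn, and Scn7a and Ptn were no longer tested. Entpd2, Scn7a and Ptn had no UMI in transcript cluster 14: their UMIs lay in cluster 11, but for 1 Ptn UMI in the cell of neither cluster. Schwann markers summed to 0 CPM in stellate replicate 1 and 574 CPM in replicate 2; their part in these results was not tested. Mfap4 and Col14a1 lost their calls without stellate replicate 1 (0.17 and 0.21), as did Sod3 (0.063) and Col6a1 (0.35), and Col14a1 (0.18) and Col6a1 (0.17) also without endothelial replicate 1. Hand2os1 is read from the strand opposite Hand2, and whether counting used the strand is not given here, so its level is uncertain.

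Stmn2, a microtubule regulator listed among neuronal markers and named after its values were seen, was higher in endothelial cells. Stmn2 stood at 446 and 501 CPM in endothelial and 0 and 20.2 CPM in stellate cells (adjusted p = 0.0004), in 32 of 129 and 6 of 10 endothelial cells. The other neuronal markers were at 0 in endothelial replicate 1, where Stmn2 was the 1 of 4 detected.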

How the data were processed

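The labels list 7 samples, and the deposited tables, which are marked as a subset, cover 2 libraries. They hold UMI counts of genes and of transcripts per cell, as whole numbers without normalization from the authors, with the authors' clusters in a cell table. The submitters' processing notes name mm10 and Seurat, and neither an aligner nor a counter nor strandedness is given in the sources used here. For each of 6 types the counts of a library were added together (12 sums). Genes were tested with edgeR 4.0.16 (TMM scaling, quasi-likelihood, 5 residual degrees of freedom), with the library as a block, because each library gave both types, and a filter on the 4 sums compared. Transcript shares used diffSpliceDGE for transcripts with at least 10 UMIs and 5% of their gene. Calls had a Benjamini-Hochberg adjusted p under 0.05. R was 4.3.3, limma 3.58.1 and DESeq2 1.42.0.

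Intervals of shares and ratios are exact at 95% and cover counting error only, and the floor for a gene with no UMI was 3 UMIs over both sums. Beside list members, the 12 genes with the largest fitted log2 fold change on each side were named, among genes called, above the median mean expression and changed the same way in both libraries, without cell type markers, predicted genes and mitochondrial genome genes, and transcripts of genes with at least 20 UMIs in each sum. The members and gene lists were chosen with earlier results of these data known. Simulated counts of these sums were used to test the scripts. Doublets were scored with Scrublet, which called 6 (0.125%) and 14 (1.28%) cells, none of these types, so the top 6% of scores per library were dropped as an alternative. Alternatives were the block, the samples fitted, scaling, filters, DESeq2, limma's diffSplice, thinning to equal totals, doublet scores, the duct-marker cluster and leaving out each library. Cluster 15, which the authors also named endothelial, carried duct markers and was left out by the choice of cluster 11. Some genes are not reported here.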

Additional observations from a re-analysis of the deposited data

How the results depend on the processing

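The genes called numbered 727 in the main comparison (356 higher in endothelial and 371 in stellate cells), and no named gene changed sign while called. With only the 4 endothelial and stellate sums fitted, 460 were called (280 and 180). With no filter on low counts, 1151 were called (588 and 563), and with UMIs thinned to equal totals, 434 (210 and 224). With the duct-marker cluster included, 191 genes were higher in endothelial and 316 in stellate cells, of 3334 tested. Against stellate transcript cluster 14 there were 484 (232 and 252) and against cluster 11 there were 389 (207 and 182). Leaving out 1 of the 4 sums gave 434 to 673 genes, 217 to 339 higher in endothelial and 217 to 334 in stellate cells. Each such fit left 1 sum in the type concerned, and no whole library was left out. Without the replicate block, that is without pairing by library, 585 genes were called (306 and 279), with 1 gene and 2 transcripts for usage.

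Transcript usage was called in 3 genes and 3 transcripts. limma's diffSplice called 8 genes and 13 transcripts, and with only the 4 sums there were 5 transcripts. With 20 UMIs per transcript there were 1 gene and 1 transcript, with 10% of the gene per transcript 5 transcripts, and with thinned UMIs 0 and 0. Including the duct-marker cluster gave 1 and 1, and the gene was Tpm1, which was not among the 3. Transcript cluster 14 gave 3 genes, Myl6, Rps24 and Tpm1, and 5 transcripts. Cluster 11 gave 1 and 1, the gene being S100a16. Removing cells with markers of another type gave 5 genes, Cxcl12, Myl6, S100a16, Slc9a3r2 and Tpm1, and 6 transcripts. As each of the 4 sums was left out, not all of the 3 genes kept their call. The cause of these changes was not tested, beyond the fewer counts or samples that some settings hold by construction. The comparisons with cluster 14, with cluster 11 and without cells carrying other markers were chosen after seeing the data. Of 150 called genes of the lists or named, 44 were called in every setting that tested them. Some of the others lost their call when 1 of the 4 sums was left out. With 10 endothelial cells in replicate 2 and 19 to 27 stellate UMIs for genes such as Slc9a3r2, depth limits the shares.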
